A study of Mus musculus with 6 samples.

Results

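The genes described here make, regulate and read out nitric oxide. They are 10 of the 20822 genes in the count table, taken by name: the synthases Nos3 and Nos1, the synthase-binding proteins Nostrin and Nosip, the inhibitor-degrading enzymes Ddah1 and Ddah2, the nitric oxide receptor subunits Gucy1a1 and Gucy1b1, the cyclic GMP-dependent kinase Prkg1 and the cyclic GMP phosphodiesterase Pde5a. All 10 had at least 4 unique molecular identifiers (UMIs, each standing for 1 captured transcript) in the table. They were read across 8944 single-cell transcriptomes obtained by Drop-seq, a droplet method that counts the 3′ ends of transcripts, from mouse retinas at postnatal day 14 of oxygen-induced retinopathy. In this model pups breathe 75% oxygen from day 7 to day 12, which obliterates immature retinal capillaries, and vessels regrow after the return to room air. The eNOS+/+ group was wild-type C57BL/6J. The eNOS-/- group was homozygous for a knockout allele of Nos3, backcrossed to C57BL/6J and present in every cell of the animal from conception. Each genotype had 3 replicates, and each replicate pooled 3 to 5 retinas that had been enriched on beads carrying CD31 antibodies, so the shares of cell types reflect that enrichment.

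Nitric oxide is formed from arginine by the endothelial, neuronal and inducible synthases. It diffuses to neighbouring cells and binds soluble guanylate cyclase, a pair of an alpha and a beta subunit, which then makes cyclic GMP. Cyclic GMP activates protein kinase G, relaxes the contractile cells of the vessel wall and is broken down by phosphodiesterases. Methylated arginines block the synthases, and dimethylarginine dimethylaminohydrolases (the Ddah enzymes) degrade them.

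The replicates held 415 to 3710 cells and 617246 to 3350799 UMIs. Endothelial cells (ECs) made up 5925 of the cells by the deposited labels, more than the paper counts, a difference that was not tested. They were deposited as Tip ECs (1428 cells), Proliferative ECs (1162) and, under the label ECs, 3335 cells that were read here as Structural ECs. All 10 endothelial markers were present in the ECs of every replicate. The other deposited types were Mural cells (214), Neurons (690, of which 461 carried UMIs of at least 2 bipolar cell markers), Neuroglia (184), Immune cells (216), Optc+ cells (157), Rods (1508) and Cones (50). Levels are given as UMIs of a gene per 1000000 UMIs (CPM) of the summed cells of 1 type in 1 replicate, over sums of at least 10 cells. By this rule Cones had 1 usable sum and are left out, and eNOS+/+ replicate 1 gave no Mural sum (3 cells). Of the replicates, eNOS-/- replicate 3 stood apart: the summed level of 10 Mural markers in its Structural ECs was 3898 CPM against 34.0 to 182 in the other 5 replicates, and 37 of its 186 Structural ECs carried at least 2 Mural markers. Cell barcodes were not shared between replicates of a genotype, and 3 were shared between genotypes. Within replicates, 2874 of the 8944 cells had a barcode that differed from that of another cell in the last base only. Keeping 1 cell per such family left 6900 cells, 4416 of them ECs. Cell numbers, shares and their intervals here count all these cells separately, and whether such cells are distinct was not tested. The cell types were defined from these same cells, so levels are compared between types as a description, without a test.

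The question the design puts to these genes is whether loss of eNOS changed their transcripts. With the 6 replicates as units, 0 of the 7 members that passed the filter on low counts in all ECs were called between genotypes by the edgeR quasi-likelihood test, against 0.0211 percent of all genes tested. The count was likewise 0 of 4 in Tip ECs, 0 of 6 in Structural ECs and 0 of 4 in Proliferative ECs, where 0.0181, 0.0264 and 0.0217 percent of all genes were called. It was 0 of 5 in Mural cells, 0 of 2 in Neurons and 0 of 2 in Neuroglia, where 0 genes of any kind were called. Optc+ cells (0 of 1, 2.06 percent of all genes called) and Rods (0 of 1, 0.032 percent) gave no call either, and no member passed the filter in Immune cells. No member had an unadjusted p under 0.05 in any of these fits, and DESeq2 on the same sums also called 0. The interaction of genotype with EC subtype called 0 of the 5 members tested and 0 of all 7019 genes. Fold changes in all ECs had standard errors of 0.17 to 0.47 on the log2 scale. A call after adjustment over all genes needs several standard errors, so changes well above these sizes could also go uncalled with these replicates.

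**Figure D1:**
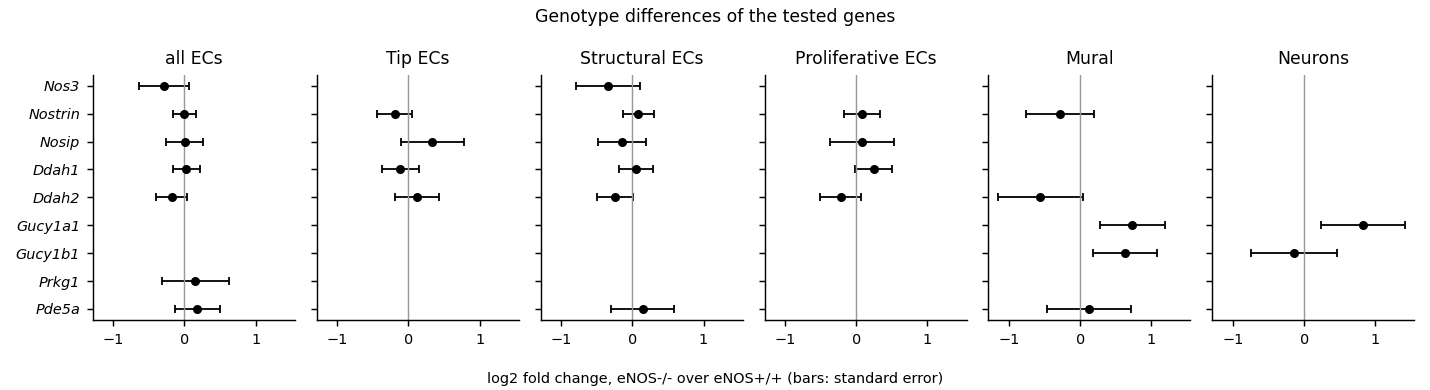
Log2 fold change of eNOS-/- over eNOS+/+ (x axis) with its standard error (bars) from edgeR for each member that passed the filter on low counts, in all ECs, the 3 EC subtypes, Mural cells and Neurons; a missing point is a member that was not tested there. The points in the EC panels lie between -0.35 and 0.33, and the points farthest above 0 are Gucy1a1 in Neurons (0.83) and Mural cells (0.73), none of them called.

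Nos3, the endothelial synthase, lies at chr5:24364810-24384474 on the forward strand (GRCm38, GENCODE vM21). It had 191 UMIs, of which 180 (94.2%) were in ECs, while ECs held 79.5% of all UMIs. In the summed ECs its level was 19.4, 36.6 and 23.6 CPM in the eNOS+/+ replicates and 21.2, 16.1 and 32.8 CPM in the eNOS-/- replicates. The genotypes overlapped, with eNOS-/- replicate 3 above 2 of the 3 wild-type replicates. The log2 fold change was -0.29 (SE 0.35; edgeR quasi-likelihood adjusted p = 0.969). These UMIs do not check the genotype: they are read from 3′ ends, and the sources used here do not say which part of the gene the allele lacks, so a transcript that cannot make the enzyme would still be counted if its 3′ end is kept. The last 294 bases of the gene also overlap Atg9b on the opposite strand, and an antisense RNA, Gm15587, overlaps its exons. Atg9b had 9 UMIs and Gm15587 had 39, and since the use of strand in counting is not given in the sources used here, reads of these pairs cannot be told apart where they overlap.

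Among the ECs, Nos3 was higher in Structural than in Tip ECs in 6 of 6 replicates, with means of 28.5 ± 12.1 and 18.1 ± 4.75 CPM (SD, n = 6), and stood at 26.2 ± 8.85 in Proliferative ECs. Structural ECs were above Proliferative ECs in only 3 of 6 replicates, and the spreads of neighbouring subtypes overlapped. A UMI of Nos3 was found in 2.75% of ECs (Wilson 95% interval 2.36 to 3.20, counting error only). The share was 0.398% in Rods and 0.435% in Neurons, cells not known to use this synthase, whose median depths (361 and 579 UMIs) were below that of ECs (682). With every cell drawn down to 500 UMIs the shares were 1.19% in ECs, 0.475% in Rods and 0.510% in Neurons. Mean levels were 15.65 ± 18.79 CPM in Rods (0 to 47.62) and 11.77 ± 15.8 in Neurons (0 to 39.49), from 7 and 4 UMIs. The Rods mean lay within the range of the Tip EC level (11.97 to 23.14 CPM) and the Neurons mean just below it. The Tip EC mean lay within the ranges of both types, so levels alone do not set Tip ECs apart from them. No Nos3 UMI was found in Mural cells, Neuroglia, Immune or Optc+ cells. For the 214 Mural cells, 0 allows a share of up to 1.40% of cells with a UMI, and 3 UMIs over all Mural cells would be 9.55 CPM.

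Nos1, the neuronal synthase (chr5:117781032-117958840, forward strand), had 4 UMIs in 4 cells, all in eNOS-/- replicate 2, the replicate with the most cells: 1 each in a Structural EC, a Proliferative EC, a Neuron and an Immune cell. It did not pass the filter on low counts in any comparison and was tested only in fits without a filter, which did not call it. In the retina this synthase is known from amacrine cells, and only 20 of the 690 Neurons carried at least 2 amacrine markers.

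Nos2, the inducible synthase and the third member of the family (chr11:78920787-78960254, forward strand), was not among the 10 genes but was read beside them. It had 245 UMIs, 97.1% of them in ECs, and none in the 216 Immune cells, which allows up to 1.39% of such cells. Its level was higher in Tip ECs than in Structural and in Proliferative ECs in 6 of 6 replicates (44.1 ± 9.12 against 17.2 ± 9.53 and 25.6 ± 9.18 CPM). For Nos3, Tip ECs were instead below Structural ECs in 6 of 6 replicates and below Proliferative ECs in 5 of 6. In Tip ECs the eNOS+/+ replicates had 27.7, 42.7 and 42.1 CPM and the eNOS-/- replicates 49.9, 53.1 and 49.1 CPM. The genotypes did not overlap, which held for 4.94 percent of all genes tested there in the direction of higher in eNOS-/-. The log2 fold change of 0.42 (SE 0.41) was not called (edgeR quasi-likelihood adjusted p = 0.985).

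Nostrin, which binds the endothelial synthase and draws it from the cell membrane (chr2:69135800-69189330, forward strand), had the most UMIs of the 10 genes, 2328. Its mean over the 6 replicates was 316 ± 32.4 CPM (SD) for Tip, 276 ± 28.4 for Structural and 192 ± 22.2 for Proliferative ECs. Proliferative ECs were the lowest subtype in 6 of 6 replicates, while Tip ECs were above Structural ECs in 4 of 6. Neuroglia had no Nostrin UMI, and the share of Nostrin-positive cells was 1.01% in Neurons and 1.66% in Rods against 20.7% in ECs.

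Mural cells stood with the ECs for Nostrin. Their level was 397 and 312 CPM in eNOS+/+ replicates 2 and 3, and 264, 184 and 342 CPM in eNOS-/- replicates 1, 2 and 3, a mean of 300 ± 80.8 (n = 5), which lies between the Tip and Structural EC means and within their spread. At 500 UMIs per cell, 11.6% of Mural cells (Wilson 95% interval 7.35 to 17.7) and 10.9% of ECs (9.88 to 11.9) had a Nostrin UMI. Endothelial transcripts were present in these cells: 71 of the 214 Mural cells carried UMIs of at least 2 endothelial markers, and the summed level of 10 endothelial markers was 10.4 to 30.9% of that in the ECs of the same replicate. The same ratio for Nostrin was 69.6 to 147%, and the highest ratio of any endothelial marker in a replicate was 40.7 to 82.9%. With the cells carrying such markers left out, Nostrin in Mural cells was 310 ± 133 CPM.

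Between genotypes, Nostrin in all ECs was 276, 270 and 258 CPM in eNOS+/+ and 260, 264 and 285 CPM in eNOS-/- replicates. These ranges overlapped and the log2 fold change was 0.00 (SE 0.17; edgeR quasi-likelihood adjusted p = 1.00). In Tip ECs the values were 327, 358 and 328 CPM against 261, 320 and 302. All 3 eNOS-/- replicates were below the wild-type ones, as for 5.41 percent of all genes tested in Tip ECs. The log2 fold change of -0.19 (SE 0.25) was not called (edgeR quasi-likelihood adjusted p = 0.985), and the genotypes overlapped in Structural and Proliferative ECs.

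Nosip, a ubiquitin ligase that binds nitric oxide synthases (chr7:45062429-45078210, forward strand), was the most even of the genes over the cell types. Its 515 UMIs were spread like all UMIs, with 78.8% in ECs. Means ran from 19.1 ± 28.0 CPM in Optc+ cells to 112 ± 68.8 in Neuroglia, and the EC subtypes were at 42.9 to 50.8 CPM. Every neighbouring pair in the order of means lay within its spread, but this also held for Ddah2 and Gucy1a1 and does not itself show evenness. At 500 UMIs per cell the share of Nosip-positive cells was 2.04 to 3.40% in 8 of the 9 types and 0 of 111 Optc+ cells. The log2 fold change between genotypes in all ECs was 0.00 (SE 0.26; edgeR quasi-likelihood adjusted p = 0.999).

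**Figure D2:**
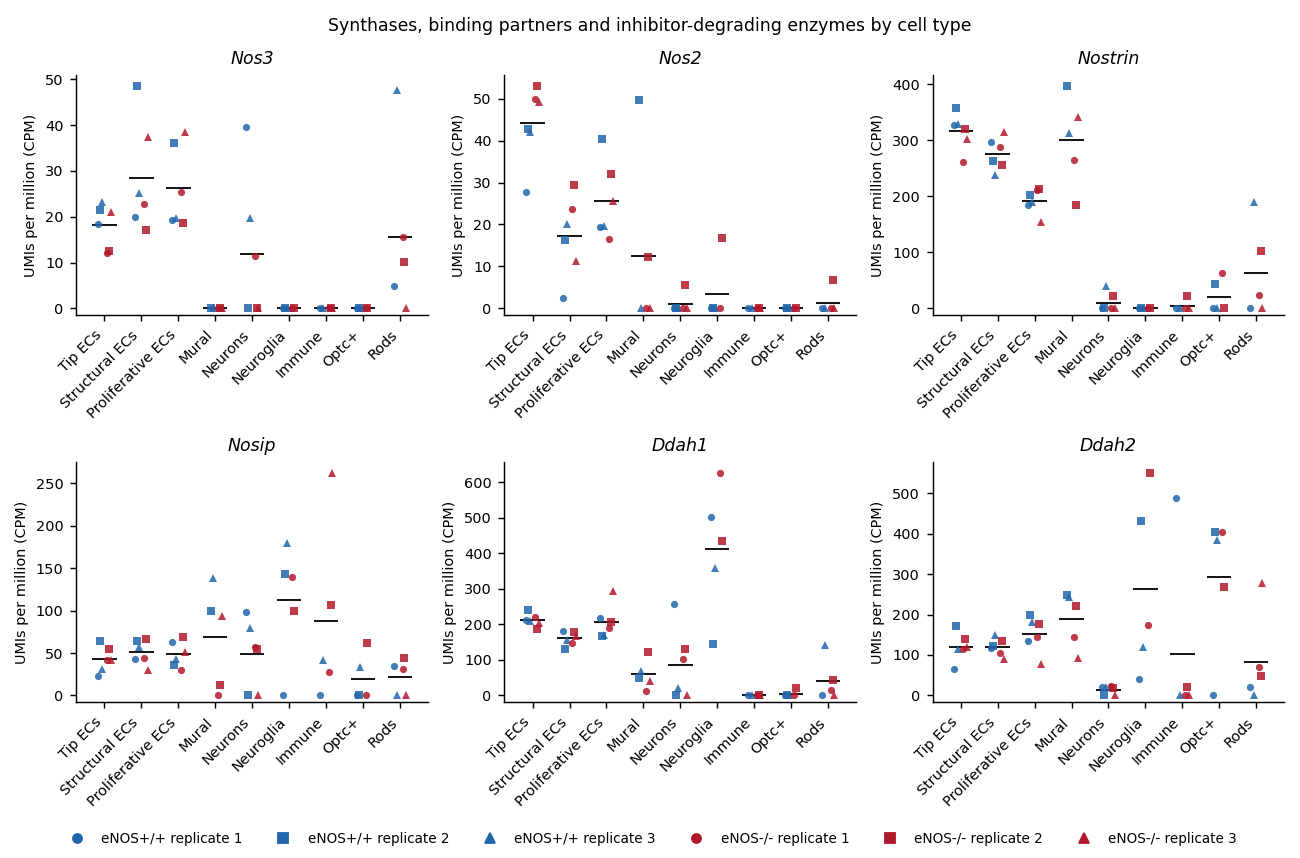
Level in CPM (y axis, linear, a different scale in each panel) of Nos3, Nos2, Nostrin, Nosip, Ddah1 and Ddah2 in 9 cell types (x axis); points are replicates with at least 10 cells of the type, coloured by genotype, and bars are means. Among the EC subtypes, Tip ECs have the lowest mean of Nos3 (18.1) and the highest of Nos2 (44.1), Nostrin is as high in Mural cells (mean 300) as in ECs, and Ddah1 peaks in Neuroglia (mean 413).

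The Ddah enzymes, which spare the synthases by degrading asymmetric dimethylarginine, differed from each other in where they were found. Ddah1 (chr3:145758675-145894277, forward strand) had 1672 UMIs and was highest in Neuroglia, at 501, 144 and 359 CPM in eNOS+/+ and 626 and 433 CPM in eNOS-/- replicates. The EC subtypes followed, at 212 ± 18.1 CPM in Tip, 207 ± 47.1 in Proliferative and 160 ± 19.8 in Structural ECs. Structural ECs were the lowest subtype in 6 of 6 replicates. No Ddah1 UMI was found in Immune cells and 1 in Optc+ cells.

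Ddah2 (chr17:35059035-35062095, forward strand), a gene of only 3061 bases, had 1311 UMIs. It was high in Optc+ cells, which had 0, 404 and 385 CPM in eNOS+/+ and 404 and 267 CPM in eNOS-/- replicates, and 44 of the 157 cells had a Ddah2 UMI. Immune cells, which had no Ddah1 UMI, had 5 Ddah2 UMIs in 3 of 216 cells. Mural cells averaged 190 ± 68.0 CPM and Neuroglia 263 ± 217, where the 5 replicates ran from 41.8 to 550. The EC subtypes were at 119 to 152 CPM. Neurons were low for Ddah2, at 13.6 ± 10.6 CPM and 1.59% of cells, while 6.96% of Neurons had a Ddah1 UMI. At 500 UMIs per cell these shares were 0.510 and 5.10%.

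Neither enzyme changed by the test between genotypes. In all ECs the log2 fold change was 0.03 (SE 0.19) for Ddah1 and -0.18 (SE 0.22) for Ddah2, with edgeR quasi-likelihood adjusted p = 0.993 and 0.969. In Mural cells Ddah2 was 248 and 243 CPM in eNOS+/+ and 145, 221 and 93.3 CPM in eNOS-/- replicates. The groups did not overlap, as for 14.7 percent of all genes tested in Mural cells in this direction, and the log2 fold change of -0.56 had an SE of 0.60 (edgeR quasi-likelihood adjusted p = 0.913). In Neuroglia the log2 fold change was 1.56 (SE 0.99) for Ddah2, again not called (edgeR quasi-likelihood adjusted p = 0.842).

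The receptor was found away from the source. Gucy1a1, the alpha subunit of soluble guanylate cyclase, and Gucy1b1, its beta subunit, are neighbours on the reverse strand of chromosome 3, at chr3:82092427-82145789 and chr3:82032006-82074689, with 17737 bases and no annotated gene between them. Of their 417 and 375 UMIs, 12.2 and 19.5% were in ECs, whereas the 214 Mural cells held 167 and 160. The promoters of these neighbours are shown because the 2 genes kept nearly the same pattern over the cell types, that of Pde5a because it shares their Mural peak, and that of Nostrin because Mural cells and ECs share its transcript. Each runs from 250 bases before to 50 after the RefSeq start (GRCm38.p6), 5′ to 3′ on the gene's strand. Capitals mark the GC box GGGCGG and the E-box CAGCTG, searched on both strands, and no marked matches overlap.
Gucy1a1 chr3:82145601-82145900, reverse strand: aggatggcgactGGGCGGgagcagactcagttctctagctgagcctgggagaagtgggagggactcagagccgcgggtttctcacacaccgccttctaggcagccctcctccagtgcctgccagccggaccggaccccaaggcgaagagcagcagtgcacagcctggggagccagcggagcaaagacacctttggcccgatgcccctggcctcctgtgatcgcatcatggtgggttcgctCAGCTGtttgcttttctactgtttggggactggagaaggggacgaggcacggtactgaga
Gucy1b1 chr3:82074662-82074961, reverse strand: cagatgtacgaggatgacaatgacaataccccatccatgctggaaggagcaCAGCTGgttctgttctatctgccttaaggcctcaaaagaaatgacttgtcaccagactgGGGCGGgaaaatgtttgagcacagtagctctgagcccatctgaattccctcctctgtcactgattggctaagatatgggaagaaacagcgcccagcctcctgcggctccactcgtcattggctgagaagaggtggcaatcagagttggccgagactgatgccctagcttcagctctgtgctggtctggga
Pde5a chr3:122728908-122729207, forward strand: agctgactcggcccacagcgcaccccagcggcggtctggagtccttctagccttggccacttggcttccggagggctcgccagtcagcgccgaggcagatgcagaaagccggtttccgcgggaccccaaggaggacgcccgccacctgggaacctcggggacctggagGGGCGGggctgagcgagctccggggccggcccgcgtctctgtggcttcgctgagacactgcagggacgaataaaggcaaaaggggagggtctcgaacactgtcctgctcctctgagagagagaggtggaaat
Nostrin chr2:69135550-69135849, forward strand: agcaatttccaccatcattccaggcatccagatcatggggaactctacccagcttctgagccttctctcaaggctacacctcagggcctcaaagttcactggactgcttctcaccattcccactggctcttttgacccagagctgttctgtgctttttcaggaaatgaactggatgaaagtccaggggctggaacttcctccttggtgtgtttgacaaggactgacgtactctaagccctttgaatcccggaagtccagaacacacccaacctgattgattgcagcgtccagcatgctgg
The Gucy1a1 and Gucy1b1 sequences each hold 1 GC box, at -238 and -140 from the start, and 1 E-box, at -10 and -199. RefSeq gives Gucy1a1 a second start, whose window (chr3:82145024-82145323) holds neither motif. GC boxes were found in 35.7% and this E-box in 16.3% of all 32851 RefSeq promoters of this length. The Pde5a sequence holds a GC box at -82, and the Nostrin sequence holds neither. The ETS core CCGGAA, in 14.9% of all promoters, was found in the Nostrin sequence at -3 and in that of Pde5a at -185. RefSeq entries were matched for 9 of the 10 genes, all but Nos3, whose promoter was not searched. No promoter of these 9 genes held a CArG box, the serum response element of smooth muscle genes, which was in 1.6% of all promoters. All these motif matches describe letters only.

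In Mural cells Gucy1a1 stood at 248 and 486 CPM in eNOS+/+ replicates 2 and 3 and at 501, 662 and 580 CPM in the eNOS-/- replicates. Gucy1b1 was 248 and 486 CPM, then 606, 466 and 560 CPM. A UMI of each subunit was found in 33.6% of Mural cells (72 of 214 for each; Wilson 95% interval 27.7 to 40.2), 40 cells had both, and 14 of these also had Pde5a. At 500 UMIs per cell the shares were 21.8% for Gucy1a1 and 17.0% for Gucy1b1. Rods, the background for these genes, had 0.713% and 0%.

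Neurons came next. Gucy1a1 was 197, 193 and 119 CPM in eNOS+/+ and 239, 276 and 669 CPM in eNOS-/- replicates, the last from 4 UMIs in 10 cells. Gucy1b1 was 217, 193 and 198 CPM, then 136, 232 and 0 CPM. Of the Neurons 158 had a UMI of at least 1 subunit and 21 had both. Among the 461 Neurons with at least 2 bipolar cell markers 22.8% had a receptor UMI, and the 158 receptor-positive Neurons held a share of such cells close to that of all Neurons (66.5 and 66.8%). The share with a receptor UMI was higher for each other marker list. It was 25.0% of 20 Neurons with amacrine, 33.3% of 18 with ganglion cell and 60.7% of 28 with cone markers. Cone-marked cells made up 10.8% of receptor-positive and 4.06% of all Neurons. Receptor-positive Neurons were also deeper, with a median of 960.5 UMIs against 579. Of the 158, 3 had at least 2 Mural markers, but the sum of eNOS-/- replicate 3 held 6862 CPM of Mural markers (6 of 10 found) against 0 to 376 in the other Neuron sums. In that replicate 2 of the 4 Gucy1a1 UMIs lay in cells with at least 2 Mural markers. Neuroglia averaged 122 ± 106 CPM for Gucy1a1 and 120 ± 127 for Gucy1b1, and 4 of 184 cells had both.

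ECs had little of the receptor. No Gucy1a1 UMI was found among 2239114 UMIs of Tip ECs (0 of 1428 cells, which allows up to 0.210%), while Gucy1b1 had 20 UMIs in 17 Tip ECs and was above 0 in 6 of 6 replicates, at 3.99 to 16.8 CPM. None of these 17 cells carried 2 Mural markers. In Proliferative ECs the subunits had 2 and 7 UMIs. At 500 UMIs per cell, 0.367% of Tip ECs had Gucy1b1, against 0 of the 421 Rods deep enough to be drawn down, an interval that reaches 0.904%, so at equal depth the share in Tip ECs was not distinguishable from background.

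**Figure D3:**
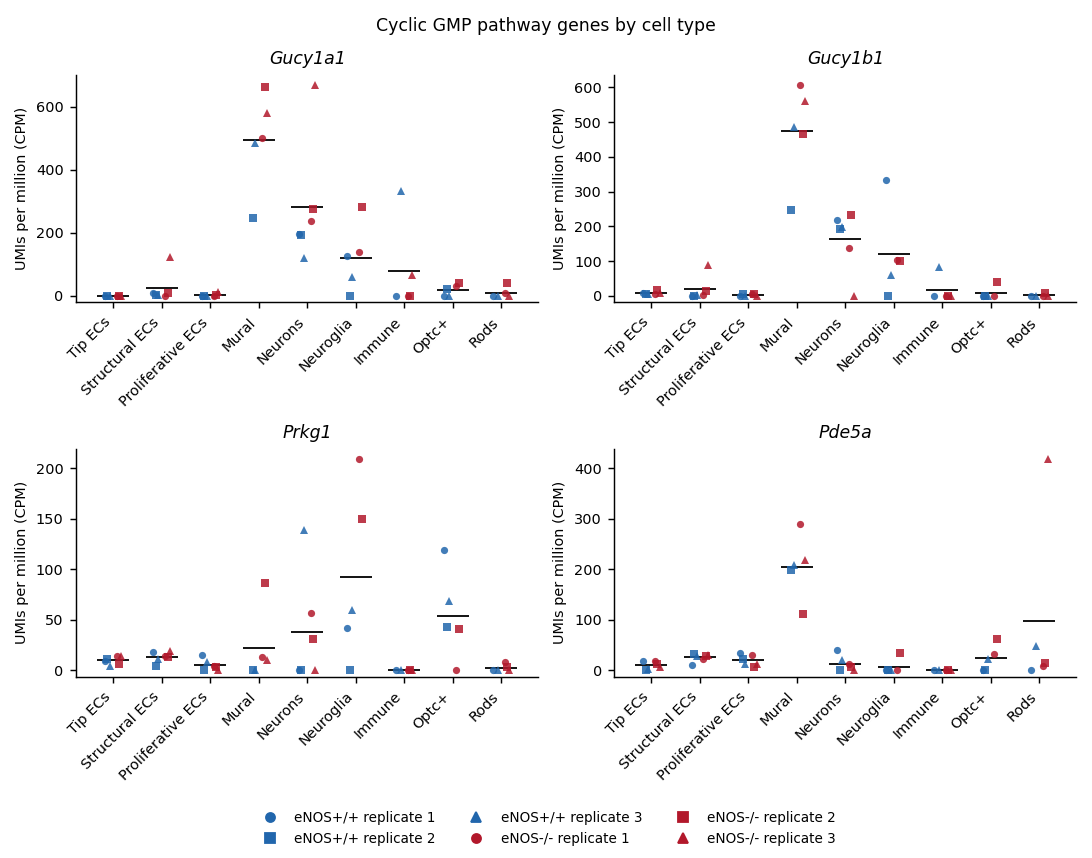
Level in CPM (y axis, linear, a different scale in each panel) of Gucy1a1, Gucy1b1, Prkg1 and Pde5a in 9 cell types (x axis); points are replicates with at least 10 cells of the type, coloured by genotype, and bars are means. Gucy1a1, Gucy1b1 and Pde5a have their highest mean in Mural cells (496, 473 and 205), and in the 3 EC subtypes both receptor subunits stay below 20 CPM except for eNOS-/- replicate 3 in Structural ECs.

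In Structural ECs the receptor UMIs came mostly from 1 replicate. Gucy1a1 was 7.49, 4.05 and 2.52 CPM in eNOS+/+ and 0, 8.94 and 123 CPM in eNOS-/- replicates. Gucy1b1 was 0, 0 and 1.26 CPM, then 3.49, 15.2 and 89.7 CPM. In eNOS-/- replicate 3, 31 of the 33 Gucy1a1 UMIs and 22 of the 24 Gucy1b1 UMIs lay in cells with at least 2 Mural markers, and in the other 5 replicates none did. The 9 Structural ECs with both subunits had a median of 5312 UMIs against 491 for all Structural ECs. Without that replicate the means over Structural ECs fell from 24.4 to 4.60 CPM for Gucy1a1 and from 18.3 to 3.99 CPM for Gucy1b1.

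The only calls that any setting gave to a member were those of the receptor subunits in these cells and in all ECs. Neither subunit passed the filter on low counts in Structural ECs or in all ECs. Without a filter, edgeR called both as higher in eNOS-/-: in Structural ECs with log2 fold changes of 2.84 (SE 0.70) for Gucy1a1 and 5.02 (SE 0.99) for Gucy1b1, adjusted p = 0.0145 and 0.00024, where 0.396 percent of all genes were called, and in all ECs with adjusted p = 0.0132 and 0.00775, where 0.429 percent were called. With cells of mixed identity also left out, the adjusted p in Structural ECs was 0.956 for Gucy1a1 and 0.503 for Gucy1b1, and without eNOS-/- replicate 3 it was 0.995 and 0.753. In all ECs the adjusted p was 0.954 and 0.818 without the mixed cells, and 0.978 and 0.297 without that replicate. The log2 fold change of Gucy1a1 in Structural ECs was then 0.31 (SE 1.10) and 0.03 (SE 1.27), while that of Gucy1b1 stayed at 3.52 (SE 1.31) and 3.50 (SE 1.20).

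Other replicates also bore on these calls. With each of the other 5 left out in turn, and no filter, the log2 fold change in Structural ECs ran from 2.37 to 3.63 for Gucy1a1 and from 4.60 to 7.15 for Gucy1b1. There Gucy1b1 kept its call in all 5 (edgeR adjusted p = 9.97e-06 to 0.00608), but Gucy1a1 lost it without eNOS+/+ replicate 2 (0.0536) and replicate 3 (0.365). In all ECs both calls were lost without eNOS+/+ replicate 3 (edgeR adjusted p = 0.238 for Gucy1a1 and 0.149 for Gucy1b1), and that of Gucy1a1 without eNOS+/+ replicate 2 (0.0865). Gucy1b1 was higher in each eNOS-/- replicate than in each eNOS+/+ replicate in Structural ECs, but the eNOS+/+ values rest on 1 UMI. Of the genes that passed the filter there, a set without Gucy1b1, 5.74 percent had such a pattern.

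**Figure D4:**
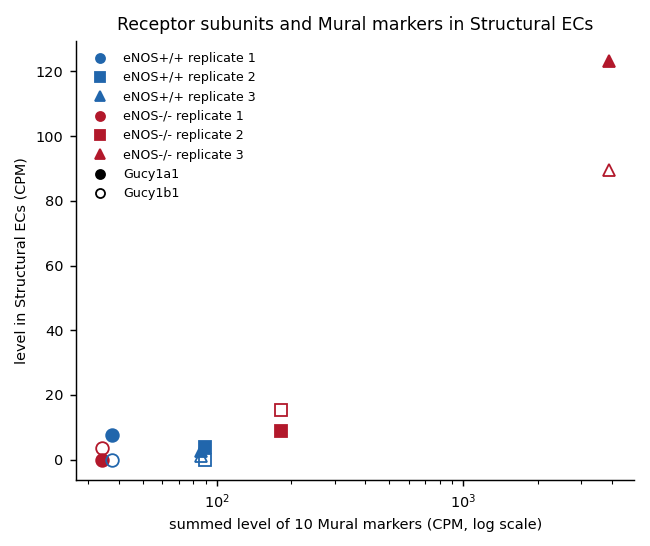
Level of Gucy1a1 (filled) and Gucy1b1 (open) in Structural ECs (y axis, CPM) against the summed level of 10 Mural markers in the same cells (x axis, CPM, log scale), 1 pair of points per replicate. Only eNOS-/- replicate 3, at 3898 CPM of Mural markers, lies above 20 CPM for the receptor subunits.

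In Mural cells themselves the receptor was not called. The log2 fold change was 0.73 (SE 0.45) for Gucy1a1 and 0.63 (SE 0.45) for Gucy1b1, with edgeR quasi-likelihood adjusted p = 0.819 and 0.842, and over the settings tried with a filter these ran from 0.668 to 0.999 and from 0.687 to 0.999. Gucy1a1 did not overlap between the 2 wild-type and 3 eNOS-/- Mural sums, as for 11.2 percent of all genes tested there in this direction, whereas Gucy1b1 did overlap. In the same sums the 10 Mural markers, of which 9 or 10 were found in each, together stood at 16627 and 15234 CPM in eNOS+/+ and at 27114, 28421 and 26874 CPM in eNOS-/- replicates, likewise without overlap. The part of this shift in the Mural values of Gucy1a1, Gucy1b1 and Ddah2 was not tested. In Neurons Gucy1a1 also lay higher in every eNOS-/- replicate, as for 5.5 percent of all genes tested, with a log2 fold change of 0.83 (SE 0.59; edgeR quasi-likelihood adjusted p = 1.00), its highest value being that of the sum rich in Mural markers, while Gucy1b1 had -0.15 (SE 0.60; adjusted p = 1.00).

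Prkg1, the cyclic GMP-dependent kinase of smooth muscle, platelets and neurons (chr19:30564489-31765033, reverse strand), had 144 UMIs over a gene of 1200545 bases. Its highest means were in Neuroglia (92.1 ± 85.2 CPM), Optc+ cells (54.1 ± 43.6) and Neurons (37.6 ± 54.5), each with replicates at 0. Mural cells had 9 UMIs, 7 of them in eNOS-/- replicate 2, and 2.80% of Mural cells had a Prkg1 UMI. Among ECs it was higher in Structural than in Proliferative ECs in 6 of 6 replicates (13.0 ± 5.22 and 5.04 ± 5.50 CPM). In all ECs the replicates were 14.6, 4.57 and 8.54 CPM in eNOS+/+ and 11.2, 8.25 and 14.3 CPM in eNOS-/-, which overlap, with a log2 fold change of 0.15 (SE 0.47; edgeR quasi-likelihood adjusted p = 0.986).

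Pde5a, the phosphodiesterase that clears cyclic GMP in vascular smooth muscle (chr3:122728947-122859374, forward strand), had 249 UMIs and its highest mean in Mural cells. There it was 199 and 208 CPM in eNOS+/+ and 290, 110 and 218 CPM in eNOS-/- replicates, so the eNOS-/- values spanned the wild-type ones (log2 fold change 0.12, SE 0.59, edgeR quasi-likelihood adjusted p = 0.980). A Pde5a UMI was found in 16.8% of Mural cells (Wilson 95% interval 12.4 to 22.4), 2.26% of ECs and 0.464% of Rods. Among ECs it was at 25.1 ± 8.18 CPM in Structural, 19.6 ± 10.9 in Proliferative and 9.68 ± 7.89 in Tip ECs, and was above the Tip level in 5 of 6 replicates in each of the other subtypes. The Rod mean of 97.3 CPM rests on 3 UMIs in eNOS-/- replicate 3 (418 CPM), and the other 4 Rod sums were at 0 to 47.6 CPM. In all ECs the replicates lay between 17.1 and 23.3 CPM and overlapped (log2 fold change 0.18, SE 0.31, adjusted p = 0.978).

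**Figure D5:**
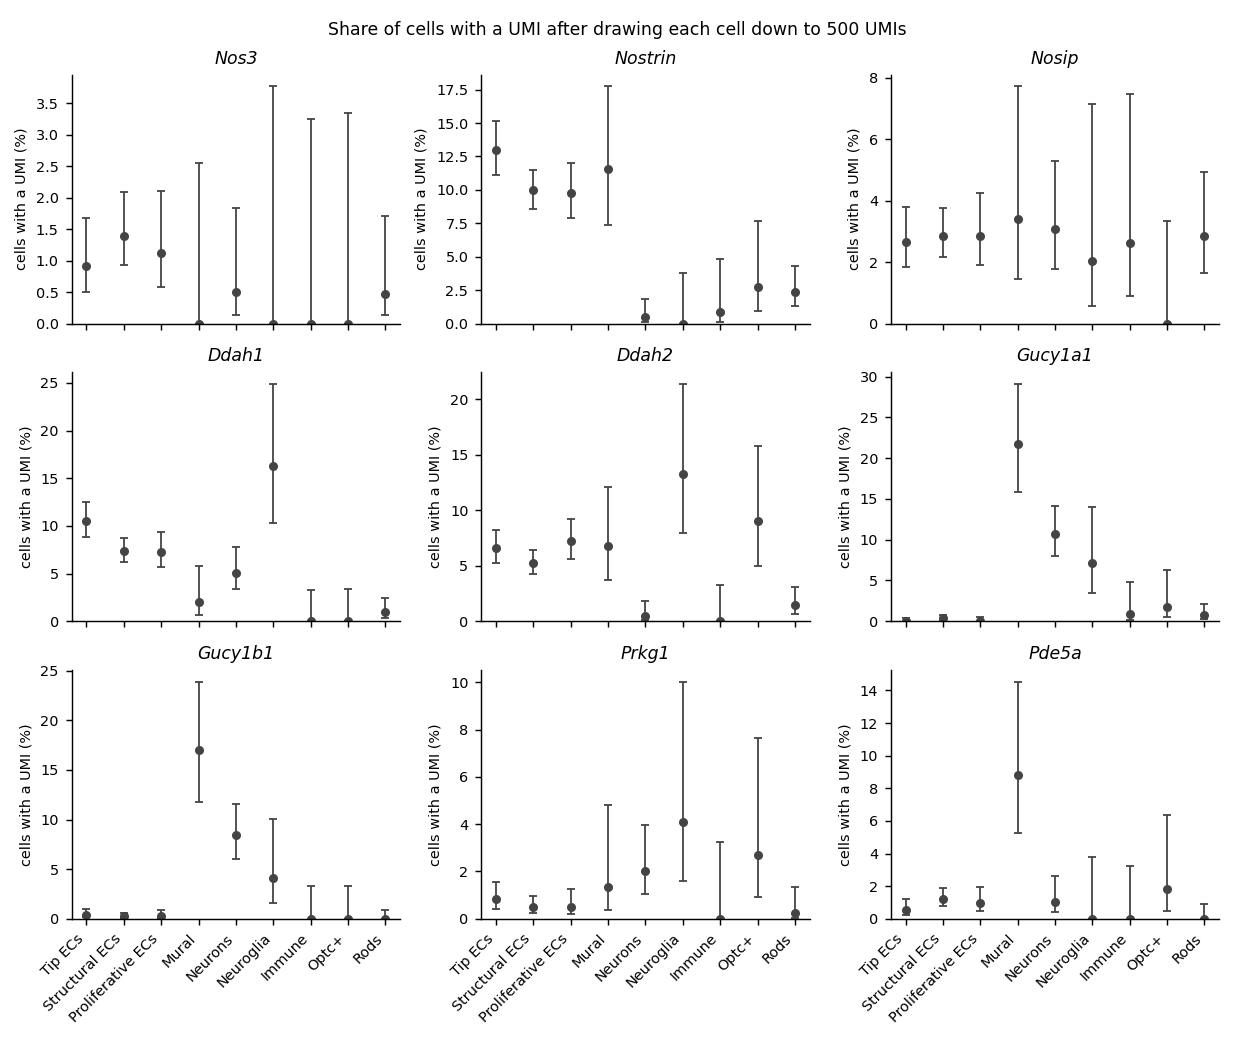
Percent of cells with at least 1 UMI of each gene (y axis, a different scale in each panel) in 9 cell types (x axis) after every cell with at least 500 UMIs was drawn down to 500; bars are Wilson 95% intervals, which cover counting error only. Mural cells lead for Gucy1a1 (21.8%), Gucy1b1 (17.0%) and Pde5a (8.84%), and Neuroglia for Ddah1 (16.3%).

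Over the 45 sums of a cell type in a replicate with at least 10 cells and 10000 UMIs, the gene most like Gucy1a1 among 7445 genes was Gucy1b1, and the reverse (Pearson r of log2(CPM + 10) = 0.913). The next genes were at 0.790 and 0.801 (Ndufa4l2 for both, a hypoxia-induced gene of pericytes), then Meg3 for Gucy1a1 (0.784) and Itih5 for Gucy1b1 (0.772). Nostrin went most closely with Col4a1 (0.914), a basement membrane collagen, Tmem123 (0.902) and Emcn (0.889), an endothelial surface protein. Pde5a went with Igf2r (0.814), Lhfp (0.799) and Col3a1 (0.795), Ddah1 with Tcf4 (0.795), Cdh13 (0.779) and Fyn (0.767), and Ddah2 with Tcf7l2 (0.827), Tcf7l1 (0.780) and Cnn3 (0.746). The closest genes to Nosip were weaker matches, Ppil2 (0.614), Eif1b (0.603) and Clns1a (0.593). These sums share libraries and differ in depth, so the coefficients are a description, with no test. The 2 Ddah genes were weakly alike (0.337, with Ddah2 at rank 1390 of 7445 genes for Ddah1). Nostrin was unlike the receptor subunits (-0.223 and -0.093).

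Of 76 further genes of the pathway, 69 were in the table. In all ECs 42 were tested and 0 were called by edgeR, 24 with a positive and 18 with a negative log2 fold change and a median of 0.07, and 0 had an unadjusted p under 0.05. The 11 tested synthase partners had a median log2 fold change of 0.08, the 6 genes of the tetrahydrobiopterin cofactor 0.10, the 4 of arginine supply and use -0.14, the 6 of cyclic GMP breakdown -0.13 and the 6 of cyclic GMP effectors and targets 0.14, beside 0.01 over all genes tested. With the filter on low counts and all replicates and cells, none of these genes was called by edgeR in any other cell type or in the interaction. Within the cell types and EC subtypes 5 had an unadjusted p under 0.05. They were 1 of 25 tested in Tip, 1 of 37 in Structural and 1 of 24 in Proliferative ECs. Mural cells had 1 of 16 and Optc+ cells 1 of 7. Of all genes tested in these types, in that order, 273 of 5510, 418 of 7577, 294 of 4607, 114 of 1973 and 124 of 1118 had such a p. Among the 5 were Hbb-bs in Tip ECs, Gch1 in Structural ECs (log2 fold change -0.86, SE 0.35, edgeR adjusted p = 0.867), Cav1 in Proliferative ECs and Hsp90ab1 in Mural cells. These genes were picked out after their values were seen.

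The leading pathway genes differed between the cells of the vessel wall. In ECs the arginine transporter Slc7a1 stood at 518 ± 82.8 CPM, against 187 ± 110 in Mural cells, and Npr1, a natriuretic peptide receptor that also makes cyclic GMP, at 31.7 ± 10.7 against a Mural mean of 15.8. In Mural cells the myosin light chain kinase Mylk was at 597 ± 263 CPM and Pde3a at 243 ± 147, against EC means of 47.0 and 4.90. Gucy1a2, the other alpha subunit of the receptor, was at 26.9 ± 35.2 CPM in Mural cells, with replicates at 0. Prmt1, which makes the dimethylarginines, was at 206 ± 103 CPM in Mural cells and 108 ± 21.2 in ECs, and the kinase substrate Vasp at 199 ± 41.2 in ECs. Cofactor genes were led by Qdpr in ECs (71.6 ± 12.7) and Neurons (70.4 ± 59.7). In Neurons the potassium channel Kcnma1 stood at 739 ± 490 CPM against 4.92 in ECs. Npr2 was at 11.7 ± 14.2 CPM in Neurons. Pde6a, a rod phosphodiesterase subunit, was at like levels in ECs (132 ± 21.6), Mural cells (110) and Neurons (123), all far below Rods (1419 ± 356). The nitrosyl-removing genes were led by the haemoglobin gene Hbb-bs in ECs, at 15.8 to 4667 CPM over the replicates, a range whose link to red blood cells in the suspension was not tested, and by Cyb5r3 in Mural cells (353 ± 75.6).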

How the data were processed

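The authors aligned the Drop-seq reads of each replicate to the mouse genome GRCm38 with kb-python, merged the UMIs into 1 matrix, processed it in Seurat (version 3 in the submitters' processing notes, which also name bcl2fastq) and removed cells with fewer than 100 genes or more than 10% mitochondrial transcripts. The deposited count table holds raw UMI counts per gene and cell, and the deposited metadata hold each cell's type, replicate, genotype, UMI count and mitochondrial percent, as the authors computed it. Doublets were not called here, and the use of strand in counting is not given in the sources used here. The label ECs in the metadata was read as Structural ECs, the subtype that remains. The table's 12 other per-cell columns were not used. Of these, the original identity gives eNOS+/+ replicates 1 and 2 the same library code, whereas the replicate column and the endings of the cell names keep them apart.

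Counts were summed per cell type and replicate (at least 10 cells) and tested with edgeR 4.0.16 (filterByExpr, TMM, quasi-likelihood F test, genotype as the only term; replicate and subtype as terms for the interaction) over all genes, with Benjamini-Hochberg adjustment and a limit of 0.05. DESeq2 1.42.0 was an alternative. The study modelled cells; here the replicate was the unit, and since each replicate is a pool of retinas, p-values measure the spread between pools. CPM are UMIs per 1000000 and are not divided by length, so levels are compared only within a gene. Shares carry Wilson 95% intervals, and the limit of a count of 0 is 3 counts. Patterns used Pearson r of log2(CPM + 10) over genes with at least 200 UMIs. The fits were tested on simulated data. Samples with the same replicate number were not paired by the labels, and their deviations from the group means correlated by 0.132, -0.07 and 0.114.

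Genes named are the 10 members, Nos2, the leading gene of each pathway list in ECs, Mural cells and Neurons, pathway genes called between genotypes, and the 3 closest genes of members with at least 200 UMIs. Some leading genes are not reported here. Members, lists and markers were chosen with earlier results of these data known. Alternatives covered the test, scaling, filter, each replicate, depth, mitochondrial genes, the replicate block, barcode families (cells whose 12-base barcodes differ in the last base only) and cells of mixed identity (ECs with at least 2 Mural markers, or other cells with at least 2 endothelial markers).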

Additional observations from a re-analysis of the deposited data

How the results depend on the processing

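In 107 of 120 alternative counts the number of members called, or of members with the same leading cell type, held. Without a filter on low counts 2 members were called in all ECs and 2 in Structural ECs (main 0 and 0), both Gucy1 subunits. With single replicates also left out, 0 to 2 members were called in all ECs and 0 to 2 in Structural ECs (1 in each without eNOS+/+ replicate 2, 0 in all ECs and 1 in Structural ECs without eNOS+/+ replicate 3, 0 in both without eNOS-/- replicate 3 and 2 otherwise), and with mixed cells left out 0 in both. These combined settings, and the mixed cells and barcode families for the calls, were chosen after seeing the data. Of 180 alternative fits 10 called 1 or 2 of the further pathway genes, 8 of them without a filter, the others in Rods with cells of at least 500 UMIs and in Optc+ cells without eNOS-/- replicate 2. With every cell drawn down to 500 UMIs the cell type with the highest share stayed for 5 of 9 members. With Spearman's rho 9 of the 21 closest genes stayed: Gucy1a1 then went most closely with Ndufa4l2 (0.733), with Gucy1b1 not among its first 3, and Gucy1b1 with Itih5 (0.755) ahead of Gucy1a1 (0.723). With the filter, leaving out each replicate kept 0 members called in each comparison. The cell type with the highest mean moved for Nosip, Ddah2, Nostrin and Prkg1 when single replicates were left out, and for Nos3 in the mean over cells.

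Of 562 alternative log2 fold changes of tested members 0 were called and 33 changed sign, 14 of them when 1 replicate was left out with the filter kept, and the cause was not tested. These counts leave out sign changes of Nostrin and Nosip in all ECs, whose main values round to 0.00 and which ran from -0.05 to 0.05 and from -0.32 to 0.17 with 1 replicate left out. With cells of at least 500 UMIs Ddah1 was -0.02 in all ECs and -0.04 in Structural ECs, and Ddah2 was -0.68 in Optc+ cells. With 1 cell per barcode family Ddah2 was -0.07 in Tip ECs and -0.54 in Optc+ cells, and Pde5a was -0.13 in Mural cells. Without a filter Nostrin was 0.05 in Mural cells and Gucy1b1 0.08 in Neurons (0.32 without mixed cells or eNOS-/- replicate 3), and without that replicate Nosip was 0.05 in Structural ECs and Ddah2 0.01 in Mural cells. Without a filter and without eNOS+/+ replicate 2, Ddah1 was -0.01 in all ECs and -0.04 in Structural ECs, Prkg1 -0.08 in all ECs and Nos3 0.01 in Structural ECs, and without a filter and without eNOS+/+ replicate 1 Pde5a was -0.18 in Structural ECs. DESeq2 gave -0.86 for Nostrin in Rods. Leaving out 1 replicate, the values ran from -0.06 to 0.17 for Ddah1 in Structural ECs, -0.02 to 0.10 for Ddah1 in all ECs, -0.20 to 0.46 for Ddah2 in Optc+, -0.13 to 0.39 for Ddah2 in Tip ECs, -0.43 to 0.45 for Nosip in Proliferative ECs, -1.19 to 6.37 for Nostrin in Rods, 0.00 to 0.17 for Nostrin in Structural ECs, -0.26 to 0.36 for Pde5a in Mural, -0.20 to 0.42 for Pde5a in Structural ECs and -0.09 to 0.57 for Prkg1 in all ECs.

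With the replicate number as a block Pde5a in Mural cells was -0.19. The block called 0 members in every comparison and changed no other call of a member, while the genes of any kind called went from 2 to 11 in Structural ECs, from 23 to 2 in Optc+ cells, from 0 to 2 in Immune cells and from 1 to 3 in Proliferative ECs, and moved by at most 1 elsewhere. The labels do not pair samples by number. The same-number correlations of -0.07 to 0.132 lay within the range of the different-number ones, -0.17 to 0.133, so they cannot decide on a pairing. The interaction fitted with no replicate block called 0 members. Depth limits all of this: Nos1 had 4 UMIs, and members under the filter were tested only in fits without it.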
